A study of Mus musculus with 2 samples.

Results

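The histone cluster genes are the genes of the mouse genome whose symbols begin with Hist1h, Hist2h, Hist3h or Hist4h. Of 67 such symbols in the feature list, 55 had at least 50 UMIs (unique molecular identifiers, each marking 1 captured transcript) pooled over both libraries in cells with at least 1500 genes and at most 10% mitochondrial UMIs. In all, 14912 features of the whole feature list reached the same number of UMIs. They comprise 5 genes of linker histone H1, 14 of H2A, 15 of H2B, 11 of H3 and 10 of H4.

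The series holds 2 single-cell RNA libraries of sorted mouse skin epidermal cells, 1 per genotype. The control carries Involucrin-CREER and Rosa-SmoM2: a tamoxifen-inducible Cre under the involucrin promoter, which is active in suprabasal epidermis and the upper follicle, and an activated Smoothened allele that switches on hedgehog signalling in recombined cells. The second library, called GOF below, carries the same alleles together with Krt14rtTA, a doxycycline-regulated transactivator under the promoter of a basal keratin, and Survivin GOF; survivin, encoded by Birc5, is a subunit of the chromosomal passenger complex of mitosis and an inhibitor of apoptosis. SmoM2 is thus shared by both groups, and cells of both were sorted as α6High/CD34-/YFP+; GOF cells are also described as carrying Survivin-mCherry, in the labels' spelling Survivin-mCharry. The number, age and sex of the mice, the time after induction and any pooling are not given in the sources used here.

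Most members encode replication-dependent histones. Their mRNAs are made in S phase, when new nucleosomes are needed for the duplicated DNA, and they usually end in a conserved stem-loop bound by SLBP instead of a poly(A) tail. Transcription of these genes is organised by NPAT in the histone locus body, and their mRNAs are cut by a dedicated machinery that includes the U7 snRNP proteins Lsm10 and Lsm11. Some members also give polyadenylated transcripts, which are known from cells that have left the cycle. The libraries were made with a kit that primes on poly(A) at the 3′ end, so the values below are of transcripts that such a primer captured, and the share of all histone mRNA that this represents was not measured.

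The stem-loop is shown first, because it is the element that sets these transcripts apart. The search used a fixed pattern of letters. It varied only in the middle of the stem (C or T before the loop, A or G after it) and at the last loop base. It was found in the annotated transcript of 37 members (GENCODE vM21, build GRCm38), in 6 versions, with the 4 loop bases in capitals.
Stem-loop of 24 members, among them Hist1h1c, Hist1h1e, Hist1h2ap and Hist3h2a: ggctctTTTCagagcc
Stem-loop of 5 H4 members, among them Hist1h4d and Hist1h4h: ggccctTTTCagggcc
Stem-loop of Hist1h2bb, Hist1h3c, Hist1h3e and Hist1h3f: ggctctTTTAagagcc
Stem-loop of Hist1h4i and Hist2h4: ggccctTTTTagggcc
Stem-loop of Hist2h2ac: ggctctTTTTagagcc
Stem-loop of Hist1h4j: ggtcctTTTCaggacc
All members whose stem begins with ggccct are H4 genes, and the stem of the H4 gene Hist1h4j was found in no other member.

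The annotated transcripts fell into 3 groups. In 16 members the transcript ends within 100 bases of the stem-loop, and in 21 it runs on for more than 100 bases. In 18 the pattern was not found in the annotated transcript. These 18 are called members with no annotated stem-loop, though a stem-loop of other letters would have been missed. The last group includes Hist1h1b and Hist1h1a, whose models stop soon after the coding sequence, and Hist1h2bc, whose model is spliced. Among the abundant members, the stretch past the stem-loop is 4884 bases in Hist1h1d, 1643 in Hist3h2a, 1153 in Hist1h1e, 840 in Hist1h1c and 151 in Hist1h2ae.

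The members lie in clusters: 43 on chromosome 13 between positions 21715763 and 23764406, 9 on chromosome 3, 2 on chromosome 11 and Hist4h4 alone on chromosome 6. Hist1h1b lies at chr13:21779883-21780625, Hist1h2ap at chr13:21833026-21833507, Hist1h1e at chr13:23620629-23622558 and Hist1h1c at chr13:23738808-23740367, each annotated with a single exon, while Hist1h2bc at chr13:23684199-23692908 is spliced. Hist3h2a lies at chr11:58954685-58956830. The members include 10 pairs of genes that start within 1000 bases of each other and run in opposite directions. In 9 of them an H2A gene lies beside an H2B gene, with starts 176 to 296 bases apart. The remaining pair, Hist1h2bh and Hist1h3f, has starts 660 bases apart. Of the 55 members, 48 matched a RefSeq promoter window of 300 bases. The letters CCAAT, on either strand, were in 87.5% of these windows against 41.1% of 27025 promoters of the same length. TATAAA was in 56.2% against 15.7%. The octamer ATTTGCAT was in 20.8% against 1.97%, and in the members it was found only in H2A genes (5 of 13) and H2B genes (5 of 13). CCAAT was in 3 of 9 H4 windows and in all 39 windows of the other classes. Windows of paired genes can overlap, and both strands were searched, so the same site can count for both partners.

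A pair of promoters is shown because of the results below: among the 12 members with the most UMIs, Hist1h1b differed most between M-high and cycle-low cells, and Hist3h2a was one of those that differed little. Each is the 250 bases before the start, on the gene's strand (RefSeq, GRCm38.p6), with matches to the 3 motifs in capitals.
Hist1h1b, chr13:21780626-21780875, minus strand: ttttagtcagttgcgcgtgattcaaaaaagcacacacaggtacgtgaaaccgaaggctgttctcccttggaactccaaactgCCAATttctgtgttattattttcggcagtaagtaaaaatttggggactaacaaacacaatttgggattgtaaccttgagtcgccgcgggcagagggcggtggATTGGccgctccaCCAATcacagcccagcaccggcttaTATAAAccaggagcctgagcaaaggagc
Hist3h2a, chr11:58954435-58954684, plus strand: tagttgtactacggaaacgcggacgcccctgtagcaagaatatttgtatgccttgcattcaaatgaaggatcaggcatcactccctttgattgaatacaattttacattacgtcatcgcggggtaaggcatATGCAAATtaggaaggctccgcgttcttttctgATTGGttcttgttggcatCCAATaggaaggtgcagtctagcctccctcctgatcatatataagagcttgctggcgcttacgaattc
Both hold CCAAT. The Hist1h1b window also holds TATAAA and the Hist3h2a window the octamer. Only exact letters were searched, and the Hist3h2a window holds the similar letters TATATAA near its end. The pair thus does not show that Hist3h2a lacks a TATA-like element. A match is a match of letters and not a measured binding site.

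After filtering, 10240 control and 6496 GOF cells were kept. Melanocyte-like and immune-like clusters were set aside, and all other cells, 10080 and 6318, were counted as keratinocytes. Unnamed clusters are thus included by default. Among them, cluster 13 (1713 control and 3 GOF cells) had 0 of 11 basal and 0 of 12 differentiating keratinocyte markers raised, and 3 of 4 fibroblast markers. Cluster 12 (2 control and 67 GOF cells) had 1 of 11 basal keratinocyte and 3 of 8 immune markers raised. The median kept cell had 7659 UMIs in control and 12316 in GOF. The labels state 8046 cells for the control, while its file holds 24844 barcodes, 10993 of which passed the filter on genes and mitochondrial UMIs. The libraries share 84 barcodes, 20 of them among kept cells. Levels are given in CPM, UMIs scaled to a common library total. Control keratinocytes had 55.3 CPM of Birc5, against 790 CPM in GOF. Krt14, a basal keratin, had 12888.5 and 15265.7 CPM, and Cd34, the marker the sort selected against, 0.233 and 0.552 CPM. By expression of sex-linked genes, 7328 control keratinocytes were called male and 30 female, against 1805 and 3605 in GOF, so over all cells sex differs along with genotype. Among male-called cells sex is matched, while genotype and library cannot be told apart in any of the comparisons. With 1 library per genotype no test of genotype was possible. Intervals below are exact 95% intervals for counting error only; UMIs of the same library are not replicates.

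The 12 members with the most UMIs held most of the histone signal. Hist1h1b led with 35957 pooled UMIs, followed by the H2A gene Hist1h2ap with 31015, the linker histone genes Hist1h1e with 15049 and Hist1h1c with 12091, the H2A gene Hist1h2ae with 10566 and the H2B gene Hist1h2bc with 6843. The other 6 were Hist1h4d (3563 UMIs), Hist2h2ac (3468), Hist3h2a (3245), Hist1h1a (2975), Hist1h4h (2452) and Hist1h1d (2237). At the bound of 50 UMIs, Hist1h4k (53), Hist1h2bf (78) and Hist1h2bp (82) were the nearest members above it, and Hist1h2bk (39), Hist1h4b (35) and Hist1h4f (31) the nearest symbols below. Genes known for their expression in testis were close to absent: Hist1h1t had 10 UMIs, Hist1h2aa 1 and Hist1h2ba 0. Hist1h1a, a linker histone gene also known from testis, was a member with 2975 UMIs.

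Keratinocytes were put into cycle states by genes that are not histones. Each cell was thinned to 3000 UMIs, and the UMIs of 46 S-phase genes (the S list, such as Mcm2, Pcna and Rrm2) and of 12 core mitotic genes (such as Top2a, Mki67 and Cdc20) were counted. Cells with at least 3 core mitotic UMIs were called M-high. Cells with fewer, and with at least 9 S-list UMIs, were called S-high; cells with at most 3 S-list UMIs and no core mitotic UMI were called cycle-low; the remainder lay between. In control there were 3373 cycle-low, 3430 between, 615 S-high and 2572 M-high cells, and in GOF 3099, 1690, 593 and 926. The cuts are arbitrary points on a continuous range: 1103 cells lay within 1 UMI of the S-high bound, and 637 had exactly 3 core mitotic UMIs. The M-high label does not mean mitosis alone, since the median M-high cell also had 6 S-list UMIs in control and 11 in GOF.

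Histone cluster transcripts were most abundant in M-high cells of both libraries. The summed level of the 55 members in control was 181 CPM in cycle-low, 246 CPM in between, 361 CPM in S-high and 1139 CPM in M-high cells. In GOF it was 175, 218, 485 and 3108 CPM in the same order. The order of the states was the same in both libraries. M-high exceeded cycle-low 6.29-fold (interval 6.12 to 6.47) in control and 17.7-fold (17.3 to 18.2) in GOF, whereas S-high exceeded it 1.99-fold (1.90 to 2.09) in control and 2.77-fold (2.67 to 2.87) in GOF.

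**Figure D1:**
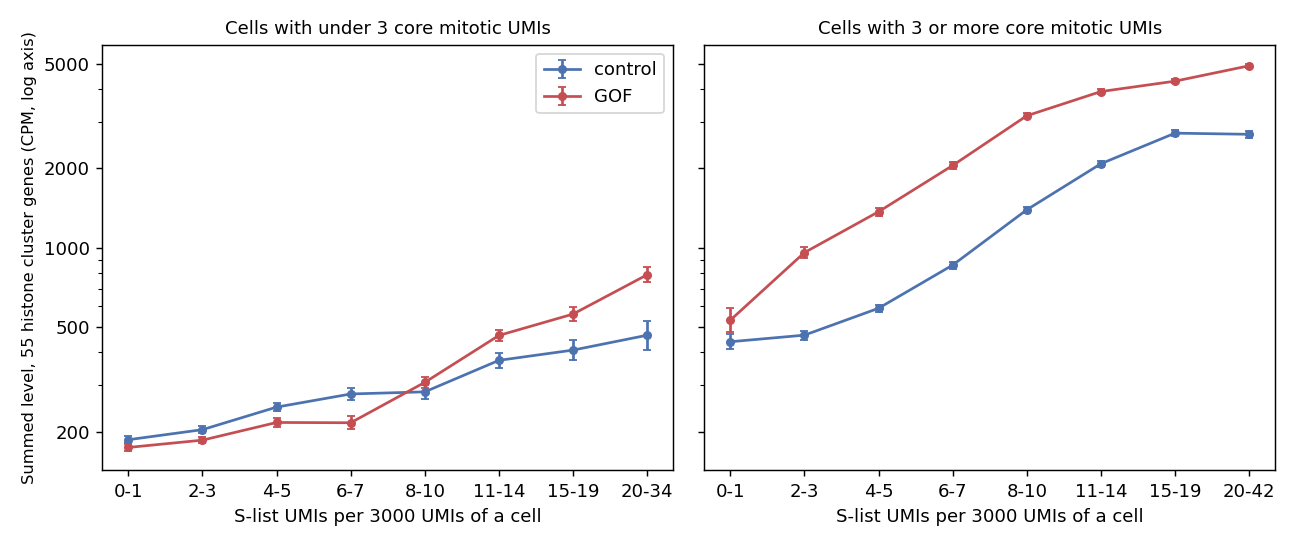
Summed level of the 55 histone cluster genes (CPM, log axis) in keratinocytes grouped by their S-list UMIs per 3000 UMIs (x axis), for cells with fewer than 3 core mitotic UMIs (left) and with 3 or more (right). Points are the 2 libraries and bars exact 95% counting intervals; with 3 or more mitotic UMIs the level climbs from 439 to 2697 CPM in control and from 531 to 4913 CPM in GOF, while below 3 it reaches at most 790 CPM.

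The plot of level against S-list UMIs separates both gene lists. Among cells with fewer than 3 core mitotic UMIs, control cells went from 186 CPM at 0 to 1 S-list UMIs to 465 CPM at 20 or more, and GOF cells from 174 to 790 CPM. Among cells with 3 or more core mitotic UMIs, control cells went from 439 CPM at 0 to 1 S-list UMIs through 859 CPM at 6 to 7 to 2725 CPM at 15 to 19 and 2697 CPM at 20 or more. GOF cells at the same bins stood at 531, 2054, 4294 and 4913 CPM. The highest histone levels were thus in cells with both S-phase and core mitotic transcripts, and cells with S-phase transcripts alone stood far lower. An unnamed cluster led by Ccne2, Ccne1 and Rrm2 held 45.6% (control) and 63.5% (GOF) S-high cells together with 48% and 32.3% M-high cells. Its summed level was 868 CPM in control and 912 CPM in GOF, and that of its S-high cells alone 605 and 520 CPM.

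In single cells the signal was sparse. After thinning to 3000 UMIs, 76.9% of control and 84.4% of GOF M-high cells held at least 1 member UMI, against 39.5% and 39.8% of cycle-low cells. At least 20 member UMIs were found in 0.972% of M-high control cells and in 16.3% of M-high GOF cells. Unthinned, the M-high shares with a UMI were 92.7% and 98.1%, at median depths of 8883 and 17152 UMIs. Melanocyte-like and immune-like cells, which were not assigned states, held a member UMI in 51.9% (control) and 57.9% (GOF) of thinned cells. Barcodes that failed the cell filter had 330 CPM of member UMIs in control and 277 CPM in GOF. Those of them with at most 1000 UMIs had 373 and 493 CPM. Both lie above the cycle-low level, so free RNA and transcripts of the cycle-low cells themselves could not be told apart by the level alone.

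Member by member, the cycling pattern was broad. In control, 50 of 55 members were at least 1.5-fold higher in M-high than in cycle-low cells and 2 were lower, where 17.7% and 10.1% of all tested genes were. In GOF, 50 were higher and 1 was lower (16.2% and 12.9% of all genes). The median log2 ratio of the members was 2.82 in control and 4.001 in GOF, beside 0.09 and 0.07 over all genes. S-high cells differed less from cycle-low cells. In control 35 of the 49 members with a value were higher and 6 lower (24.2% and 12.1% of all genes), with a median of 1.28 beside 0.15. In GOF 34 of 52 were higher and 5 lower (16.4% and 11.5%), with a median of 1.33 beside 0.08. Against M-high cells directly, 51 of 55 members were lower in S-high cells of control and 0 higher (8.85% and 11.9% of all genes), and 53 were lower and 1 higher in GOF (8.88% and 7.7%). All 3 annotation groups took part, with median log2 ratios of -1.66, -1.35 and -1.45 in control for members that end at the stem-loop, run on and have none annotated.

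**Figure D2:**
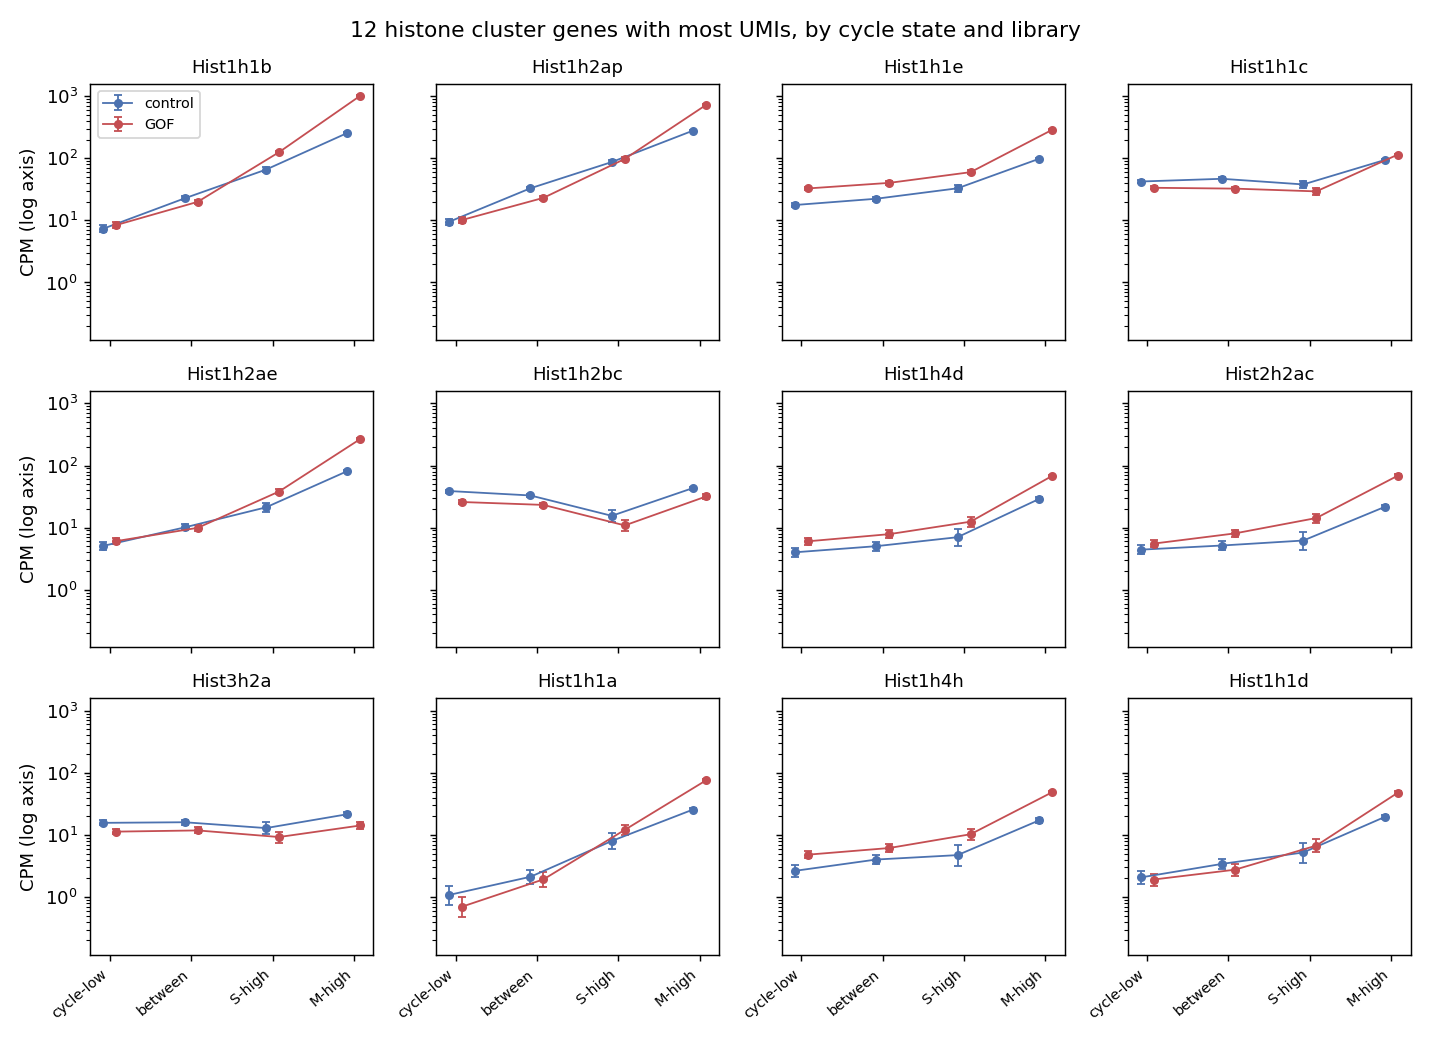
Level (CPM, log axis) of the 12 members with the most UMIs in cycle-low, between, S-high and M-high keratinocytes of the control (blue) and GOF (red) library, with exact 95% counting intervals. Hist1h1b, Hist1h2ap, Hist1h2ae and Hist1h1a span more than an order of magnitude, while Hist3h2a stays nearly level and Hist1h2bc is lowest in S-high cells.

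All 5 linker histone members were at least 1.5-fold higher in M-high than in cycle-low cells of both libraries, by very different amounts. Hist1h1b, which encodes the H1.5 subtype, stood in control at 7.35 CPM in cycle-low, 22.6 in between, 65.6 in S-high and 255 in M-high cells, and in GOF at 8.41, 19.9, 125 and 1016 CPM. Its M-high to cycle-low log2 ratio was 5.12 in control and 6.92 in GOF, the highest of the 5 H1 members. Hist1h1a, encoding H1.1, went from 1.08 to 25.7 CPM in control and from 0.70 to 75.8 CPM in GOF between cycle-low and M-high cells. Hist1h1d, encoding H1.3, went from 2.07 to 19.4 and from 1.92 to 47.6 CPM.

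Hist1h1e and Hist1h1c, encoding H1.4 and H1.2, were already present in cycle-low cells. Hist1h1e stood at 17.7 CPM there in control and 32.6 CPM in GOF, and at 97.7 and 285 CPM in M-high cells. Hist1h1c stood at 42.2 and 33.5 CPM in cycle-low cells, did not exceed that in S-high cells (37.9 and 29.3 CPM), and reached 93.6 and 114 CPM in M-high cells. The make-up of the H1 transcripts therefore differed by state. Hist1h1c gave 60.0% of the H1 member UMIs in cycle-low control cells and 19.04% in M-high control cells. The corresponding shares in GOF were 43.4% and 7.42%. Hist1h1b gave 10.4% and 51.9% in control and 10.9% and 66.0% in GOF.

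Among H2A genes, Hist1h2ap carried most of the signal, at 9.48, 32.8, 86.8 and 279 CPM across cycle-low, between, S-high and M-high control cells and 10.1, 23.0, 97.5 and 722 CPM in GOF. Hist1h2ae followed with 5.09 and 81.3 CPM in cycle-low and M-high control cells and 6.07 and 268 CPM in GOF. Hist2h2ac had a smaller range, from 4.42 to 21.5 CPM in control and from 5.54 to 68.4 CPM in GOF. Hist3h2a was almost flat: 15.7, 16.0, 12.9 and 21.5 CPM in the 4 control states and 11.3, 11.8, 9.26 and 14.2 CPM in GOF. Hist3h2a was therefore among the main histone transcripts of cycle-low cells and a minor one of M-high cells.

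The H2B signal was led by Hist1h2bc, whose pattern was the reverse of most members in S-high cells. In control it stood at 38.9 CPM in cycle-low, 33.0 in between, 15.5 in S-high and 43.5 CPM in M-high cells, and in GOF at 25.9, 23.2, 10.9 and 31.8 CPM. Its S-high to cycle-low log2 ratio was -1.32 in control and -1.25 in GOF, and the H2A gene Hist1h2ac, also among the lowest by this ratio in control, had only 2 UMIs in S-high control cells and is given no fold. Hist2h2be differed little between M-high and cycle-low cells, with log2 ratios of 0.30 and 0.15. The less abundant H2B genes did follow the cycle: Hist1h2bm went from 0.22 to 5.57 CPM in control and from 0.30 to 13.4 CPM in GOF, and Hist1h2bj from 0.22 to 4.45 and from 0.26 to 13.2 CPM. For Hist1h2bn no fold is given, since it rests on 1 UMI in cycle-low control cells against 71 in M-high control cells.

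H3 and H4 genes gave fewer UMIs. Hist1h3c, the most abundant H3 member, stood at 0.38 CPM in cycle-low and 11.1 CPM in M-high control cells and at 0.44 and 42.4 CPM in GOF. Hist2h3c1 and Hist2h3c2 were the members lower in M-high cells of control, and Hist2h3c1 the one in GOF. Hist2h3c1 had 4.17 CPM in cycle-low and 1.87 CPM in M-high control cells and 2.94 and 1.07 CPM in GOF, and Hist2h3c2 had log2 ratios of -0.78 and -0.16 on only 12 and 9 M-high UMIs. Every 90-base window of the annotated Hist2h3c1 transcript also occurs in another gene, so its counts depend on how shared reads were assigned. Among H4 genes, Hist1h4d went from 4.01 to 28.8 CPM in control and from 6.03 to 67.7 CPM in GOF, and Hist1h4h from 2.64 to 17.1 and from 4.81 to 48.4 CPM. Hist2h4 had 0.796 and 1.83 CPM in control and 0.794 and 1.77 CPM in GOF, and Hist4h4 had log2 ratios of 1.20 and 2.21; these were the H4 members with the smallest M-high difference.

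**Figure D3:**
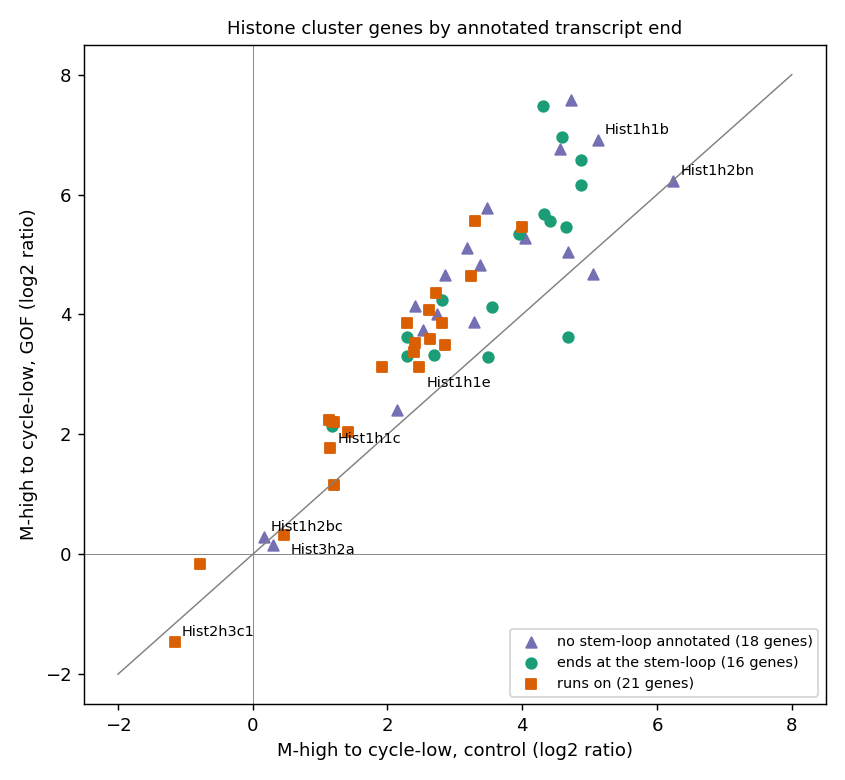
Log2 ratio of M-high to cycle-low cells for each of the 55 members in control (x axis) and GOF (y axis), marked by the annotated end of the transcript; the diagonal marks equal ratios, and a member with no UMI in a state is drawn at its bound. Most points lie above the diagonal, and the members near 0 belong to the groups that run on past the stem-loop or have none annotated.

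The annotated transcript end went with the size of the M-high difference. In members that end at the stem-loop, the median M-high to cycle-low log2 ratio was 4.13 in control and 4.79 in GOF, and 16 of 16 were higher in each library, where 17.7% of all genes were higher in control and 16.2% in GOF. In members that run on, it was 2.39 and 3.37, with 18 of 21 higher. In members without an annotated stem-loop, it was 3.33 and 4.75, with 16 of 18 higher. In cycle-low cells the members annotated to run on made up the larger part, 106 of 181 CPM in control and 107 of 175 CPM in GOF. Those annotated to end at the stem-loop gave 22.8 and 27.9 CPM. The ends of the captured transcripts were not measured. In M-high cells the 3 groups were closer, at 368, 404 and 366 CPM in control and 986, 904 and 1217 CPM in GOF. A 20-base window with 14 adenines is present in the Hist1h1b transcript and one with 16 in Hist1h2ap, where the range over members was 7 to 18; whether such stretches were primed was not tested.

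Partners of divergent pairs did not always share a pattern. Hist1h2ac and Hist1h2bc start 251 bases apart, yet their M-high to cycle-low log2 ratios were 1.13 and 0.16 in control and 2.25 and 0.30 in GOF. Hist2h2ac and Hist2h2be, 239 bases apart on chromosome 3, had 2.28 and 0.30 in control and 3.63 and 0.15 in GOF. In both pairs the H2B partner had the smaller ratio. In the pair Hist1h2ap and Hist1h2br the ratios were 4.88 and 2.86 in control and 6.15 and 4.67 in GOF, with 25591 against 379 UMIs in keratinocytes.

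Comparing the libraries over all keratinocytes, the summed level was 499 CPM in control and 777 CPM in GOF, 1.56-fold higher in GOF (interval 1.54 to 1.57). Of the 55 members, 22 were at least 1.5-fold higher in GOF, where 7.17% of all genes were, and 1 was lower, where 6.1% were. The median log2 ratio was 0.45 beside 0.08 over all genes. The sum rested strongly on the pair of leading genes: without Hist1h1b and Hist1h2ap the ratio was 1.31. Hist1h1b had 215 CPM in GOF and 89.8 CPM in control, Hist1h2ap 158 and 102 CPM, Hist1h1e 85.5 and 44.1 CPM and Hist1h2ae 60.2 and 30.5 CPM.

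Several members were lower in GOF. Hist3h2ba, an H2B gene, stood at 1.57 CPM in GOF and 4.74 CPM in control, a 3.02-fold lower level, and was the only member past 1.5-fold in that direction. Hist1h2bg, another H2B gene, had 0.582 and 0.779 CPM, with a log2 ratio of -0.42 over all keratinocytes and 0.06 among male-called ones. Hist1h2bc stood at 24.8 and 36.9 CPM, Hist3h2a at 11.8 and 17.4 CPM and Hist1h1c at 48.1 and 58.7 CPM. These 3 are among the 4 members most abundant in cycle-low cells, and cycle-low cells alone gave log2 ratios of -0.59, -0.47 and -0.33 for them. Among male-called keratinocytes the log2 ratios were -0.10 for Hist1h2bc, whose interval then includes equality, -0.62 for Hist3h2a, -0.41 for Hist1h1c and -1.34 for Hist3h2ba. The summed H2B ratio was 0.828 over all keratinocytes and 1.002 among male-called ones, and 0.701 and 0.9495 in cycle-low cells. Hist1h1e, the remaining one of the 4, was higher, with 1.85-fold more in GOF there (1.67 to 2.04).

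Hist1h2ad had the largest ratio between the libraries, a log2 ratio of 1.55 on 344 GOF and 119 control UMIs. Among male-called keratinocytes the same gene had a log2 ratio of -0.25, on 30 and 100 UMIs, and 278 of the 344 GOF UMIs were in female-called cells. The next in size, Hist1h1b (1.26), Hist1h3c (1.15) and Hist1h2ai (1.12), kept their sign among male-called cells with 0.98, 1.41 and 1.18. Over all members, male-called cells gave a summed ratio of 1.45 (1.42 to 1.47), with 22 members higher and 3 lower (7.34% and 8.86% of all genes). Outside clusters of which at least 95% came from 1 library, the summed levels were 539 CPM in control and 934 CPM in GOF, with 29 members higher and 1 lower (7.88% and 5.2%).

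**Figure D4:**
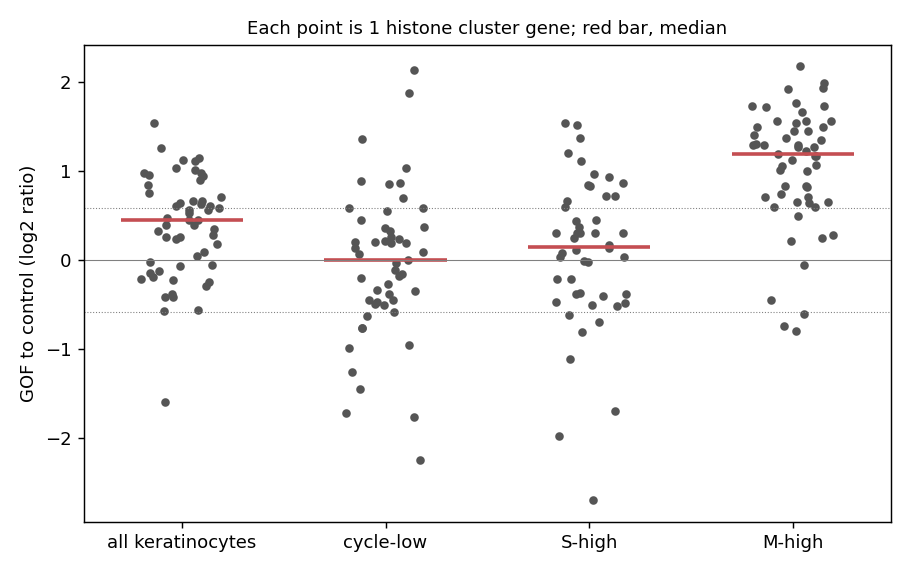
Log2 ratio of GOF to control for each histone cluster gene in all keratinocytes and in cycle-low, S-high and M-high cells; each point is 1 gene, red bars are medians and dotted lines mark 1.5-fold in either direction. The median is 0.45, -0.00, 0.15 and 1.19 from left to right.

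The libraries were then compared state by state. In cycle-low cells the summed levels were 181 CPM in control and 175 CPM in GOF, a ratio of 0.969 whose interval (0.936 to 1.003) includes equality, and 10 of 51 members were higher and 11 lower (10.2% and 6.46% of all genes). In the cells between, 9 of 53 members were higher and 17 lower (8.71% and 8.7%), with a median log2 ratio of -0.44. In these same cells the core mitotic list had 351 CPM in control and 147 CPM in GOF, with 10 of 12 genes lower, and in cycle-low cells 70.8 and 37.6 CPM, with 9 of 12 lower; the part of this in the members' values was not tested. In S-high cells 361 CPM in control stood against 485 CPM in GOF, with 14 of 48 members higher and 7 lower (9.74% and 10.2%). In M-high cells 1139 CPM stood against 3108 CPM, a ratio of 2.73 (2.69 to 2.77), with 46 of 55 members higher and 3 lower (10.9% and 9.58%). The median log2 ratio in M-high cells was 1.19, beside 0.10 over all genes. Hist1h1b was 3.98-fold higher (3.88 to 4.09), Hist1h2ae 3.29-fold (3.13 to 3.46) and Hist1h2ap 2.59-fold (2.52 to 2.66). Hist1h2ad was 4.53-fold higher (3.60 to 5.75), but most of its GOF keratinocyte UMIs were in female-called cells. Among male-called keratinocytes the log2 ratio of Hist1h2ad was negative, as given above. The part of sex in the M-high fold of Hist1h2ad was not tested. Hist3h2a, Hist3h2ba and Hist2h3c1 were the 3 members lower in GOF M-high cells, with log2 ratios of -0.60, -0.74 and -0.80, and Hist1h2bc had -0.45. The difference between these state-wise ratios was not tested.

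By class, M-high cells had 491 CPM of H1 members in control and 1539 CPM in GOF, 433 and 1148 CPM of H2A, 93.9 and 128 CPM of H2B, 41.7 and 117 CPM of H3 and 78.5 and 177 CPM of H4. The ratio of the sums was 3.13 for H1, 2.80 for H3, 2.65 for H2A, 2.25 for H4 and 1.36 for H2B, where Hist1h2bc took 43.5 of the 93.9 CPM in control. The order of the classes was not stable: among male-called M-high cells H3 had 3.19, H1 2.80, H4 2.57, H2A 2.54 and H2B 1.51, and by the median log2 ratio over all M-high cells H4 (1.03) lay below H2B (1.05). Of all genes, 10.9% were higher and 9.58% lower in GOF M-high cells. Between GOF and control M-high cells, members annotated to end at the stem-loop had a median log2 ratio of 1.36, with 16 of 16 higher. Those annotated to run on had 0.70, with 14 of 21 higher and 3 lower. Those with no annotated stem-loop had 1.22, with 16 of 18 higher.

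M-high cells of the libraries differed in more than histone transcripts, and those values stand beside the ratio. The S list summed to 2526 CPM in control and 3932 CPM in GOF, with 30 of its 46 genes at least 1.5-fold higher (10.9% of all genes). The core mitotic list summed to 3167 and 3895 CPM. Krt10, a keratin of differentiating layers, was at 2290 CPM (control) and 590 CPM (GOF) M-high cells. M-high cells were 25.7% of control and 14.7% of GOF keratinocytes. Many of the control ones came from cluster 13, unnamed and counted as keratinocytes by default, which held 1713 control and 3 GOF cells. Of its control cells 50.4% were M-high, and the summed histone level of all its control cells was 388 CPM. As a whole, cluster 13 had 0 of 12 listed cycling genes raised, though 2 of them, Cdc20 and Ube2c, were among its leading genes. Outside the one-library clusters, M-high cells were 20.6% and 18.9% of keratinocytes, their summed level was 1608 CPM in control and 3197 CPM in GOF, and the ratio was 1.99 (1.96 to 2.02) with 34 members higher and 3 lower (8.48% and 8.01%).

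M-high cells were also compared in 2 ranges of S-list UMIs, and GOF was higher in both. With 9 or more S-list UMIs the levels were 2135 CPM in control and 4208 CPM in GOF, a ratio of 1.97 (1.94 to 2.004), with 33 members higher and 3 lower (9.43% and 9.37%) and S-list sums of 4483 and 5371 CPM; the core mitotic list stood at 3827 and 3582 CPM. With fewer than 9 they were 673 and 1540 CPM, a ratio of 2.29 (2.23 to 2.35), with 39 members higher and 5 lower (12.7% and 10.6%) and S-list sums of 1612 and 1881 CPM. There the core mitotic list was also higher in GOF, at 2858 CPM against 4341 CPM, so this range does not match the cells on cycle position. Hist1h1b stood at 556 and 1423 CPM in the first group and 114 and 437 CPM in the second. Among male-called M-high cells the members summed to 1113 CPM in control and 2885 CPM in GOF, with 40 higher and 1 lower (13.1% and 11.1%). Male-called S-high cells gave 18 of 40 higher and 4 lower (8.89% and 14%), and male-called cycle-low cells 9 of 45 higher and 6 lower (9.69% and 9.33%). The parts of sex, depth and cell make-up in the remaining difference were not tested.

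The same direction was seen in each of 3 cycling-like clusters, in which all 12 listed cycling genes were raised. Cluster 4, in which 3 of 11 basal keratinocyte markers were raised, had 1865 CPM in control and 3786 CPM in GOF, 2.03-fold (1.98 to 2.08). Cluster 15, in which 11 of 14 markers of hedgehog-high basaloid cells were raised, had 1830 and 3364 CPM, 1.84-fold (1.80 to 1.88). Cluster 18, in which 3 of 8 upper follicle markers were raised, had 1447 and 2588 CPM, 1.79-fold (1.73 to 1.85). The S list was higher in GOF too, at 2883 and 4266 CPM in cluster 4, 3774 and 4552 CPM in cluster 15 and 2647 and 3037 CPM in cluster 18, while the core mitotic list was lower, at 5803 and 5366, 5074 and 4541, and 3208 and 2284 CPM. The part of these shifts in the histone difference was not tested. Hist1h1b was higher in GOF in all 3, at 446 and 1286 CPM, 454 and 1135 CPM, and 334 and 806 CPM. Hist1h1c differed among them, with 178 and 144 CPM in cluster 4, 81.5 and 97.7 CPM in cluster 15, and 96.1 and 95.3 CPM in cluster 18. At least 1.5-fold higher in GOF were 28 of 54, 32 of 55 and 24 of 50 members, where 11.6%, 9.63% and 10.1% of all genes were, and 4, 3 and 4 members were lower (9.73%, 10.2% and 10.2%).

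**Figure D5:**
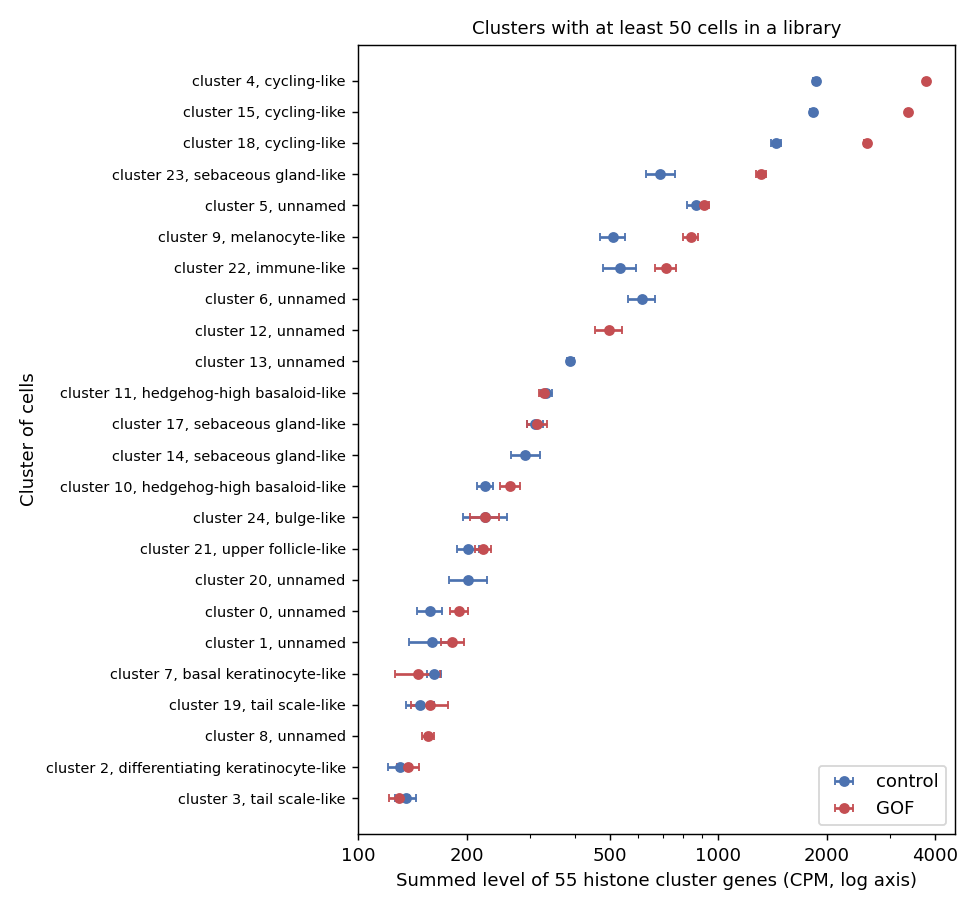
Summed level of the 55 histone cluster genes (CPM, log axis) in the 24 clusters with at least 50 cells in a library, for control (blue) and GOF (red), with exact 95% counting intervals. The 3 cycling-like clusters are highest and the libraries stand apart there, whereas in most clusters with few cycling cells they overlap or nearly so. The libraries also stand apart in the melanocyte-like and immune-like clusters.

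The other clusters ranged widely. The level was 130 CPM (control) and 137 CPM (GOF) in differentiating keratinocyte-like cells, 135 and 130 CPM in a tail scale-like cluster, 162 and 146 CPM in basal keratinocyte-like cells, 202 and 222 CPM in upper follicle-like cells and 225 and 224 CPM in bulge-like cells. The hedgehog-high basaloid-like clusters stood at 225 and 264 CPM and at 333 and 328 CPM. A small sebaceous gland-like cluster, with 52 control and 138 GOF cells, had 690 and 1315 CPM, and inner root sheath-like cells, of which there were 32 and 29, had 1182 and 1808 CPM. Melanocyte-like cells had 509 and 839 CPM, immune-like cells 533 and 714 CPM, and an unnamed cluster of 94 control and 17 GOF cells 613 and 180 CPM. Over clusters, the histone level was set against the share of S-high cells. The Spearman correlation was 0.26 in control (22 clusters) and 0.31 in GOF (20 clusters). Clusters share a library, and the value is a description. The melanocyte-like and immune-like clusters, which were not assigned states, entered it with an S-high share of 0. Cells with 3 or more core mitotic UMIs cannot be S-high by definition. Cluster 4 thus held 0.188% (control) and 1.20% (GOF) S-high cells beside 98.1% and 97.0% M-high cells. The value therefore does not describe S phase as a whole.

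Within cycle-low cells, individual members still differed between clusters. Hist1h2bc in control ranged from 13.0 CPM in tail scale-like cluster 3 to 140 CPM in sebaceous gland-like cluster 17, over 12 clusters with at least 50 cycle-low cells; in GOF it ranged from 8.59 CPM in cluster 8, nearly all of which came from GOF, to 52.6 CPM in bulge-like cluster 24, with 46.9 CPM in cluster 17. Hist1h1c was highest in bulge-like cells of both libraries, at 73.5 CPM (control) and 61.5 CPM (GOF), and lowest in differentiating keratinocyte-like cluster 2 of control (22.2 CPM) and tail scale-like cluster 3 of GOF (24.5 CPM). Hist3h2a was highest in hedgehog-high basaloid-like cluster 11, at 34.4 and 21.1 CPM, and lowest in sebaceous gland-like cluster 17, at 7.89 and 6.29 CPM. Hist1h1e was higher in GOF than in control in each cluster with both values, with 12.4 to 23.9 CPM over clusters in control and 21.7 to 45.2 CPM in GOF.

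Histone genes outside the clusters, which give polyadenylated transcripts, were also higher in cycling cells. Of 11, 9 were at least 1.5-fold higher in M-high than in cycle-low cells of each library, with median log2 ratios of 1.54 in control and 1.52 in GOF. Of all genes, 17.7% were higher in control and 16.2% in GOF by the same comparison. Between the libraries, their summed level in M-high cells was 8244 CPM in control and 8580 CPM in GOF, a ratio of 1.04, and 0 of 11 passed 1.5-fold, where 10.9% of all genes were higher and 9.58% lower. H2afz, the gene of the H2A.Z variant, was at 1715 and 2280 CPM and H3f3b, a gene of the H3.3 variant, at 2466 and 2268 CPM. In genes for histone mRNA transcription and 3′ processing, 4 of 15 were at least 1.5-fold higher in GOF M-high cells and 0 lower, beside the same 10.9% and 9.58%. These were Npat (19.2 CPM in control and 32.9 in GOF), Casp8ap2, a histone locus body protein (43.1 and 73.3), Slbp (96.7 and 156) and the histone mRNA exonuclease gene Eri1 (41.5 and 67.9). Lsm10 and Lsm11 had ratios of 1.04 and 1.02. Of 15 genes for histone chaperones and acetylation, 2 were higher, a share near the 10.9% of all genes: Chaf1a, a subunit of chromatin assembly factor 1 (30.2 and 47.9 CPM), and the acetyltransferase gene Hat1 (69.3 and 105 CPM). Over all keratinocytes 0 of either 15 passed 1.5-fold in either direction, where 7.17% of all genes were higher and 6.1% lower. Slbp, Casp8ap2 and Chaf1a are also on the S list.

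Most members share sequence with relatives, which limits values of single genes. Only 4 members (Hist1h1b, Hist1h1a, Hist2h2be and Hist2h4) had no 90-base stretch in common with another annotated gene, and in 20 more than 50% of stretches were shared. Hist1h2ap, with 92.4% shared, is among the latter, so the split of UMIs between it and other H2A genes is uncertain; Hist1h1b, with 0, is not affected in this way. Among the histone cluster symbols, Hist1h1e and Hist1h2be overlap on the same strand, and overlap with other genes was not searched. Hist3h2a shared 30.1% of its stretches with other annotated genes, among them Trim17, which is not a histone cluster symbol. Restricting the M-high comparison to members with at most 50% shared sequence gave a summed ratio of 2.79 against 2.73.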

How the data were processed

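The deposited matrices hold raw UMI counts per gene and barcode for 1 control and 1 GOF library. Per the submitters' processing notes, Cell Ranger 6.1.1, R 4.3.0, Seurat 4.2.0 and build mm10 were used; the annotation and the read assignment are not given in the sources used here, and replicates were not pooled as there are none. Per the labels' protocols, 10000 cells were loaded per channel of a 3′ kit.

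Here, barcodes with at least 1500 genes and at most 10% mitochondrial UMIs were kept. The automatic doublet threshold marked 0 cells in either library, so the 6% with the highest scores were removed instead (753 and 426). Cells were clustered with scanpy 1.11.5 (2000 variable genes, 30 components, 15 neighbours, Leiden resolution 1, no integration), leaving out histone cluster, mitochondrial, ribosomal and sex-linked genes and Birc5. Levels (CPM) are summed UMIs scaled to the group's total. For cycle states, cells were thinned to 3000 UMIs, which left out 90 control and 10 GOF keratinocytes; the S-high bound is the 85th percentile. Ratios carry exact conditional 95% intervals, levels exact Poisson and shares exact Clopper-Pearson ones. A count of 0 was set to 3 for a ratio, which then is a bound, and no ratio was taken where both counts were at most 3. A fold of 1.5 was the threshold, and the ratio script was tested on simulated data. Pooled depths of kept cells were 100688482 and 101106207 UMIs.

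The genes named with values were the 12 with most UMIs, the 4 largest and smallest ratios of GOF to control and of S-high to cycle-low in control, the genes nearest 50 UMIs, the testis types and the H1 genes; others were named after their values were seen. Members, lists and states were chosen with earlier results of these data known. Alternatives were scaling by the median of ratios, cell and member filters, male-called cells, clusters, thinning and state bounds. Identifiers of 55 of 55 members were found in GENCODE vM21; sequences came from that release and from RefSeq.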

Additional observations from a re-analysis of the deposited data

How the results depend on the processing

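The ratios and medians of members that differed kept their direction under the alternatives run. The cycle-low ratio of 0.969, whose interval includes equality, was 0.900 with median-of-ratios scaling, 1.06 in male-called cells and 1.03 without one-library clusters. Each library is 1 sample, so leaving out a replicate gave no value, and no paired analysis was possible because there is 1 library per genotype. "Moved" below means outside the counting interval, which for a median is that of the member nearest to it and is wide. The summed GOF to control ratio of 1.56 was 1.47 with median-of-ratios scaling, 1.49 in cells with at least 2000 genes, 1.61 without doublet removal (where removed barcodes count as keratinocytes), 1.45 in male-called cells, 1.73 without one-library clusters, 1.39 in thinned cells and 1.31 without Hist1h1b and Hist1h2ap. For the same settings in that order, the M-high ratio of 2.73 was 2.55, 2.66, 2.59, 2.59, 1.99, 2.69 and 2.26. It was 2.78 with M-high from 2 core mitotic UMIs and 2.41 from 5, 1.97 and 2.29 with 9 or more and fewer than 9 S-list UMIs, 2.41 in cells of 8000 to 16000 UMIs, and 2.79 for members with at most 50% shared sequence. The M-high median of 1.19 was 0.75 without one-library clusters and 0.74 with 9 or more S-list UMIs. The GOF median for M-high to cycle-low, 4.001, was 4.54 and 3.16 with 9 or more and fewer than 9 S-list UMIs. The GOF median for S-high to cycle-low, 1.33, was 1.69 without one-library clusters and 1.86 from the 90th percentile. Members lower in GOF, 1 in the report, were 3 with median-of-ratios scaling, 2 in cells with at least 2000 genes, 3 in male-called and 3 in thinned cells. Members higher in GOF were 13 of the 35 with at most 50% shared sequence, and 28 of them in M-high cells; fewer members were tested there. The splits by S-list UMIs, by depth, by shared sequence and without Hist1h1b and Hist1h2ap, and all M-high comparisons between libraries, were chosen after seeing the data. Members under about 100 UMIs rest on a few counts per state.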
